A study of Rattus norvegicus with 9 samples.

Results

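Electroacupuncture was set against no electroacupuncture in the uterus of rats that all received the same induction of ovulation. The comparison used 6 of the 9 arrays of the study, 3 labelled treatment (31, 32 and 33) and 3 labelled model (21, 22 and 23), and covered the 10825 genes that passed a filter on dim signals among 14217 genes with a probe set of 1 symbol. Both groups were female rats given pregnant horse serum gonadotropin (PMSG) into the abdomen at 0.5 U per rat and, 48 h later, the same amount of human chorionic gonadotropin (HCG). Treatment rats also had electroacupuncture at the Guanyuan and Sanyinjiao points, in sessions of 15 min on 7 days in a row before the induction and further sessions during it. The labels name no sham stimulation for the model rats, so needling, handling and current cannot be told apart. Neither age, strain nor the time of tissue collection is given in the sources used here. The 3 untreated control arrays (41, 42 and 43) took no part in the test, and their values appear only for reference. The labels speak of 18 rats in groups of 6 and do not tie an array to 1 animal, so the p-values measure the spread between these arrays.

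PMSG acts on ovarian follicles like follicle-stimulating hormone, and HCG acts like luteinizing hormone, so the uterus meets rising oestrogen and then progesterone from the ovary. Oestrogen drives growth and secretion of the uterine epithelium, while progesterone prepares the stroma for implantation and decidualization, the change of stromal cells that supports an embryo. Vascular endothelial growth factor (VEGF) and its receptors control vessel growth and leakiness in that tissue, and both acupuncture points are used for disorders of reproduction.

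Biotin-labelled uterine RNA was hybridised to rat expression arrays of Affymetrix. Each gene value below is log2(intensity + 16) of 1 probe set per gene, unless it is named as an intensity. The median intensity of the 6 arrays was 23.63 to 23.96. The upper quartile was 71.06 to 74.74 in treatment and 76.47 to 79.75 in model arrays. The ratio of 3′ to 5′ signal, a sign of RNA integrity, was 5.95 to 7.0 for Actb in treatment and 5.19 to 6.58 in model arrays, and 1.12 to 1.24 for Gapdh against 1.14 to 1.39. The labelled tissue matched its markers: the smooth muscle myosin gene Myh11 measured 12.02 to 12.36, the epithelial keratin gene Krt8 7.82 to 10.65, and the uterine patterning gene Hoxa10 7.63 to 8.64. The probe sets of Esr1, the oestrogen receptor, and Oxtr, the oxytocin receptor, did not pass the filter. Their intensities before the log2 step were 4.92 to 5.92 and 4.24 to 6.06. In bulk tissue, fewer cells of a type and less RNA per cell cannot be told apart.

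Model 23 lay nearer to the treatment arrays than models 21 and 22 did. Across genes, which are not independent replicates, it correlated with treatment 33 at r = 0.984 and with treatment 31 at 0.9822, against 0.9709 with model 22 and 0.9563 with model 21. Its correlation with treatment 32, 0.9655, was below that with model 22. Models 21 and 22 correlated at 0.9647, below models 22 and 23, so model 21 had the lowest correlations within the model group. The treatment arrays correlated with each other at 0.9739 to 0.9873. By limma's array weights, which are lower for arrays that scatter more, model 21 had 0.517, model 22 1.362 and model 23 0.99. The treatment arrays had 0.805 to 1.624. On the first principal component of the 6 arrays, which held 49.9% of the variance, models 21 and 22 lay at -22.86 and -21.11, model 23 at 1.11 and the treatment arrays at 8.18 to 23.61. The level of model 23 was nearer the treatment mean than the mean of its own group's other 2 arrays for 46.0% of genes, the highest share of the 6 arrays. By the same measure it was 44.4% for treatment 33, 42.8% for model 21, 38.1% for treatment 31, 32.7% for model 22 and 29.9% for treatment 32. The pooled standard deviation over genes was 0.25 among model and 0.188 among treatment arrays. Among the untreated arrays control 43 stood apart, at r = 0.972 with model 21 and 0.9587 with model 22 against 0.8872 and 0.9169 with controls 41 and 42. Model 23 thus correlated more highly with treatments 31 and 33, and control 43 with models 21 and 22, than with arrays of their own groups. The labels were kept, and whether one of them is wrong was not tested. Model 23 was kept in the test, and the main counts, and the values of genes and lists where it matters most, are given without it as well.

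**Figure D1:**
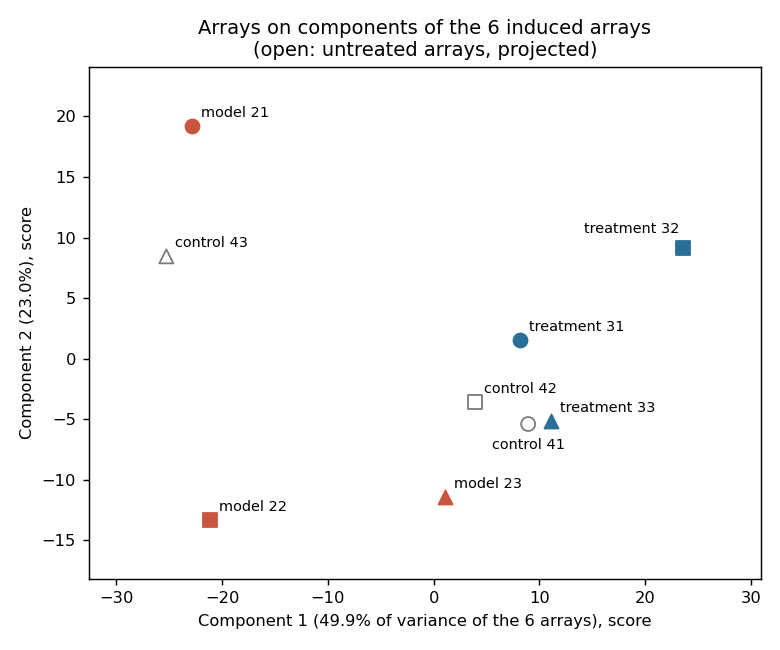
Each point is an array on the first and second principal components (scores; share of variance on the axes) of the 6 induced arrays, model in red and treatment in blue, with the untreated arrays projected as open points. Model 23 lies at 1.11 on the first component, between models 21 and 22 on the left and the treatment arrays at 8.18 to 23.61, and control 43 lies at -25.28 while controls 41 and 42 lie at 8.93 and 3.92.

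No gene passed an adjusted p under 0.05 (limma, Benjamini-Hochberg over 10825 genes; 0 genes, 0.0%). The smallest adjusted p was 0.179, shared by 577 genes. At an unadjusted p under 0.05, 2209 genes (20.4%) were counted, where about 541 would be by chance if the arrays were independent and the genes unchanged. Of these, 645 (5.96%) were higher and 1564 (14.4%) lower in treatment. The 3 treatment values did not overlap the 3 model values for 3048 genes (28.2%), with 873 (8.06%) higher and 2175 (20.1%) lower. These percentages are the background against which the counts of gene groups below are read.

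Differences were small for most genes. The median size of the log2 difference was 0.135, the median standard error was 0.1, and the 95% interval lay within 2-fold either way for 10018 genes (92.5%). A log2 difference above 1 was measured for 60 genes (0.554%) and one below -1 for 46 (0.425%), 106 (0.979%) in both directions. The lean toward lower values was not seen after quantile normalization. It stayed after median centring, with 628 genes higher and 1586 lower at an unadjusted limma p under 0.05. The median difference of all genes was -0.055 as deposited and 0.009 after quantile normalization, and the share of all genes with a difference above 0 went from 38.8% to 52.1%. After quantile normalization 1043 genes (9.64%) were higher and 875 (8.08%) lower at an unadjusted p under 0.05, so that higher genes made up 54.4% of them in place of 29.2%. Without model 23, 23 genes passed (0.212%), 15 higher (0.139%) and 8 lower (0.0739%). At an unadjusted p under 0.05, 823 (7.6%) were then higher and 1478 (13.7%) lower. Leaving out any other array gave 0 genes that passed.

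**Figure D2:**
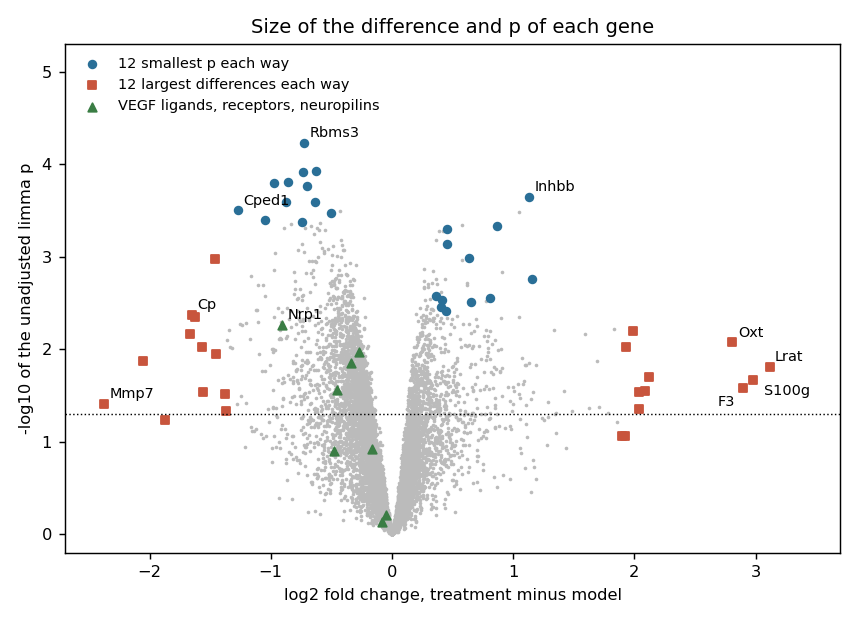
Each point is 1 of 10825 genes, with the log2 fold change of treatment minus model on the x axis and -log10 of the unadjusted limma p on the y axis; coloured points are the genes named by rank and the VEGF genes, and the dotted line marks the unadjusted threshold. The genes named by smallest p, among those above the median level with groups apart, have log2 differences of -1.27 to 1.15. Lrat, S100g, F3 and Oxt lie far to the right at 2.81 to 3.12 with larger p.

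The 12 lower genes with the smallest p had log2 differences of -1.27 to -0.50 and unadjusted p of 5.87e-05 to 4.2e-04, with an adjusted p of 0.179 for each (limma). Non-overlapping groups, and a mean above the median level of all genes in at least 1 group, were part of the rule that named them. Rbms3, which encodes an RNA-binding protein, measured 7.70, 7.64 and 7.54 in model and 6.92, 6.84 and 6.95 in treatment arrays. That was a log2 difference of -0.72 (SE 0.08, n = 3 per group), and every treatment array lay well below every model array. Rbm24, another RNA-binding protein gene known from muscle, measured 8.68, 8.64 and 8.36 against 7.78, 7.51 and 7.47 (-0.97, SE 0.13). Osr2, a transcription factor gene of embryonic development, measured 6.96, 6.66 and 6.75 against 5.97, 5.77 and 6.04 (-0.86, SE 0.11). In Rbm24 model 23 was the lowest model array, and in Osr2 model 22 was.

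Plcg1, the phospholipase C gamma gene that acts below growth factor receptors including the VEGF receptor, measured 7.84, 7.82 and 7.62 in model and 7.13, 6.99 and 7.07 in treatment arrays (-0.70, SE 0.09). Mcm7, a subunit of the helicase that opens DNA for replication, measured 7.95, 7.88 and 7.77 against 7.19, 7.16 and 7.34 (-0.64, SE 0.09). Jade1, part of a histone acetyltransferase complex, differed by -0.62 and Zfp68, a zinc finger protein gene, by -0.50. In all 4 genes the model arrays lay close together and above the treatment arrays.

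Igsf10, an immunoglobulin superfamily gene, measured 6.80, 6.72 and 6.64 in model and 5.92, 5.31 and 5.78 in treatment arrays (-1.05, SE 0.16). Sned1, an extracellular matrix protein gene, differed by -0.87, Olfml2a, an olfactomedin-like gene, by -0.74, and Adap2, which encodes a GTPase-activating protein, by -0.74. Cped1 had the largest difference of the 12, with 8.24, 8.04 and 7.62 in model and 6.69, 6.92 and 6.47 in treatment arrays (-1.27, SE 0.19). It was the lower gene of the 12 that passed without model 23 (log2 difference -1.45, limma adjusted p = 0.0463). Model 23 was its model array nearest to treatment, so leaving it out had to widen the difference, and that p-value is no separate support.

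The 12 higher genes with the smallest p under the same rule had log2 differences of 0.36 to 1.15. Their unadjusted p was 2.2e-04 to 0.00385 and their adjusted p 0.179 (limma). Inhbb, the beta B subunit of activin and inhibin, which are hormones of the reproductive axis, measured 7.26, 7.41 and 7.84 in model and 8.59, 8.72 and 8.58 in treatment arrays. The treatment arrays lay close together, model 23 was the model array nearest to them, and the log2 difference was 1.13 (SE 0.16). Without model 23 it was 1.30 with an adjusted p of 0.0228 (limma). Padi2, a peptidylarginine deiminase gene whose enzyme converts arginine to citrulline and is known as oestrogen-regulated in the uterus, measured 6.63, 6.53 and 7.19 against 7.57, 7.66 and 7.55 (0.81, SE 0.17). Without model 23 the difference was 1.01 with an adjusted p of 0.0327 (limma). Model 23 was the model array nearest to treatment in Padi2 too, so leaving it out had to widen both differences. The p-values without model 23 are therefore no separate support for either gene.

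Nos2, the inducible nitric oxide synthase, measured 6.72, 6.71 and 6.67 in model and 7.20, 7.21 and 7.06 in treatment arrays (0.46, SE 0.08). Rbm3, an RNA-binding protein induced by cold, measured 9.53, 9.45 and 9.50 against 9.99, 9.91 and 9.95 (0.46, SE 0.07). These 2 genes had among the tightest values of the 12, and model 23 was not the model array nearest to treatment in either. Nptx1, a neuronal pentraxin gene, had the largest difference, with 5.35, 5.80 and 5.31 against 6.18, 6.97 and 6.77 (1.15, SE 0.23). Mlph, a melanophilin that links vesicles to myosin, differed by 0.87, Slc25a24, a mitochondrial carrier of ATP and phosphate, by 0.65, and Tuba4a, an alpha tubulin, by 0.63. Slc25a30, another mitochondrial carrier, Rundc3a, Kcnj8, a subunit of ATP-sensitive potassium channels, and Fahd1, a mitochondrial hydrolase, differed by 0.36 to 0.44.

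Several of these genes had further probe sets. Of 14 other probe sets of 7 of the 24 genes, 10 had the same sign. The brightest of them, for Rbms3, measured 7.50 in model and 7.00 in treatment arrays. The differences of the others ran from -0.18 to 0.23. For the mean of a gene's probe sets, the difference was -0.31 for Rbm24, -0.40 for Jade1 and 0.23 for Rundc3a.

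**Figure D3:**
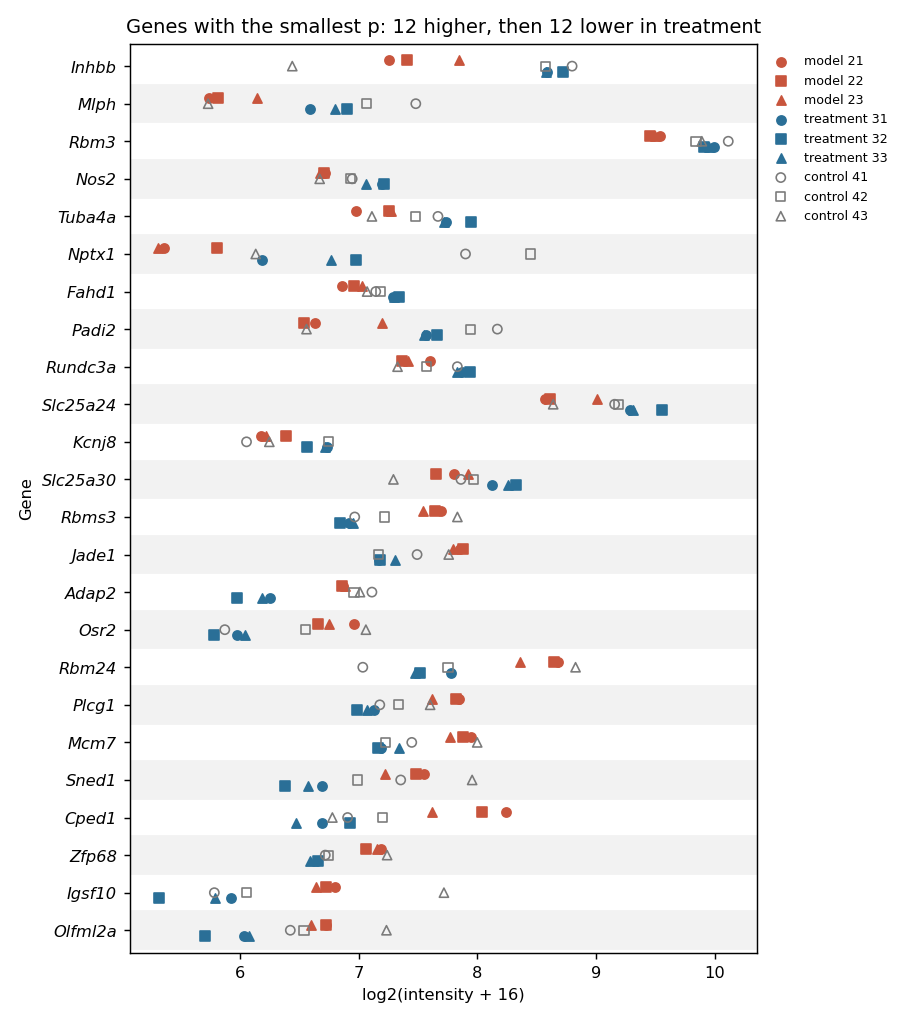
Each row is a gene and each point an array, on log2(intensity + 16). Shown are the 12 higher and the 12 lower genes with the smallest p among genes above the median level with groups apart. Model arrays are red, treatment arrays blue and untreated arrays open. Treatment and model arrays do not overlap in any row, by the rule that named the genes, and control 43 lies nearer the model mean in 10 of 12 higher and 11 of 12 lower genes.

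The largest differences had another shape. They were ranked after their values were seen, among genes whose mean in at least 1 group was above the median level of all genes. Lrat, which encodes the enzyme that esterifies retinol for storage, measured 6.77, 5.25 and 9.34 in model 21, 22 and 23 and 10.15, 10.86 and 9.70 in treatment arrays. S100g, the calcium-binding protein calbindin D9k and a classical oestrogen-responsive gene of the rat uterus, measured 5.94, 6.06 and 9.85 against 10.07, 10.39 and 10.34. F3, tissue factor, which starts blood clotting, measured 6.08, 7.43 and 10.49 against 10.77, 10.89 and 11.02. In each of these genes models 21 and 22 were low, and model 23 lay just below the treatment arrays. Their log2 differences were 3.12 (SE 0.96), 2.98 (SE 0.999) and 2.89 (SE 1.01), with limma adjusted p of 0.189, 0.198 and 0.205.

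Oxt, the gene of the hormone oxytocin, which makes uterine muscle contract, measured 5.87, 6.24 and 8.83 in model and 9.85, 9.25 and 10.27 in treatment arrays (2.81, SE 0.76, limma adjusted p = 0.179). Aqp8, a water channel, measured 8.65, 7.83 and 10.01 against 11.06, 10.70 and 10.70 (1.99, SE 0.51, adjusted p = 0.179). Tnfaip6, which binds hyaluronan in expanding matrix, measured 7.59, 9.28 and 10.67 against 11.19, 11.34 and 11.37 (2.12, SE 0.70). Model 23 was again the highest model array in all 3 genes, and the groups did not overlap. Il1a, the cytokine interleukin 1 alpha, measured 4.76, 5.48 and 6.73 against 7.58, 6.94 and 8.26 (1.93, SE 0.54).

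The other genes of the 12 were Cdkn1c, an inhibitor of the cell cycle (2.09), Isyna1, which makes inositol phosphate (2.04), Slco4a1, an organic anion carrier (2.04), the complement gene C3 (1.92) and Hsd11b1, which turns inactive glucocorticoid into its active form (1.89). Hsd11b1 measured 6.41, 7.71 and 10.47 in model and 9.86, 10.48 and 9.94 in treatment arrays, so that model 23 lay within the treatment range. C3 measured 7.04, 10.64 and 10.77 against 11.28, 11.38 and 11.56, so that only model 21 was far below the rest. Without model 21 the difference was 0.70 for C3, 1.24 for Slco4a1, 1.32 for Tnfaip6 and 0.9996 for Hsd11b1. Model 23 was nearer the treatment mean than the mean of models 21 and 22 in 12 of 12 genes. Over all 60 genes with a difference above 1 it was nearer in 51 (85.0%), against 46.0% of all genes tested, and over the 46 genes below -1 it was nearer in 18 (39.1%). The part of model 23 in the size of these differences was measured by leaving it out: the differences became 4.23 for Lrat, 4.26 for S100g, 4.14 for F3, 3.73 for Oxt and 2.58 for Aqp8.

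S100g, F3, Oxt, Isyna1 and Aqp8 passed without model 23, with limma adjusted p of 5.7e-04, 0.0327, 0.0228, 0.0463 and 0.0393, where 0.139% of all genes passed as higher. These 5 genes were ranked by size on the same values, and model 23 lay nearer treatment in each. Leaving it out had to widen their differences, so these p-values are no separate support. The other 10 higher genes that passed without model 23 included Mycn, a growth-promoting transcription factor (2.06), Ppl, the desmosomal protein periplakin (2.56), Jak2, a kinase of cytokine and prolactin receptors (1.53), and Bcat1, an enzyme of branched-chain amino acids (1.53). The 8 lower genes that passed without model 23 included Ifitm1, an interferon-induced membrane protein, Arg2, an arginase, and the transcription factor genes Sox4 and Lef1, at -2.11, -1.77, -1.42 and -0.98. Of the 23 genes, 18 had non-overlapping groups with model 23 included. All 23 differences were wider without model 23 than with it, so passing without that array is no separate support for any of them.

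The 250 bases before the start of 8 of the 12 largest higher genes were found in RefSeq tables of the rat (build GRCr8), and those of Oxt, Aqp8 and Isyna1 are shown because they are the ones found among the 5 genes above that passed without model 23. Capitals mark TGACC or its reverse complement GGTCA, the core letters that oestrogen and retinoid receptors are known to bind. All are written 5′ to 3′ along the gene. The Oxt stretch is chr3:138235504-138235753 and the Aqp8 stretch is chr1:187424193-187424442, both on the + strand, and the Isyna1 stretch is chr16:18875956-18876205 on the - strand.
Oxt: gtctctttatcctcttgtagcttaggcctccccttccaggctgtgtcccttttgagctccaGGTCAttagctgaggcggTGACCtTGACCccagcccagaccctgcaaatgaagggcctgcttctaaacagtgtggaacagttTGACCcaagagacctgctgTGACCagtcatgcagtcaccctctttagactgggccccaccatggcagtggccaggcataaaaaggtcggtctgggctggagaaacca
Aqp8: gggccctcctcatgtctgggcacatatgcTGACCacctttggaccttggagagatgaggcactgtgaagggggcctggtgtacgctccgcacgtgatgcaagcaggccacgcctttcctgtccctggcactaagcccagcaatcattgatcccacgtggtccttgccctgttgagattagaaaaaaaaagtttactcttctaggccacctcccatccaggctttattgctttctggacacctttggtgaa
Isyna1: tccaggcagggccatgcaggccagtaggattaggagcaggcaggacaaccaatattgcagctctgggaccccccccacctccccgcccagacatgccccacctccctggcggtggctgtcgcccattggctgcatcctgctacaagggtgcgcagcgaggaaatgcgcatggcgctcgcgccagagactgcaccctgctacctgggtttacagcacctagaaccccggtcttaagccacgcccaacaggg

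The Oxt stretch holds 5 such matches, the Aqp8 stretch 1 and the Isyna1 stretch 0. At least 1 was found on either strand in 7 of the 8 stretches (87.5%), as in 35.4% of 33469 rat promoters of the same length, and at least 5 in 17 of all (0.0508%). The full palindrome GGTCANNNTGACC, which contains a match on both sides, was in none of the 8 and in 8 of 33469 (0.0239%). The motif was chosen after the genes were seen, and a match describes the letters only.

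Among the 12 largest lower differences, Mmp7, a matrix metalloproteinase of the uterine epithelium, measured 9.39, 9.04 and 7.96 in model and 5.61, 8.62 and 5.04 in treatment arrays (-2.37, SE 0.93, limma adjusted p = 0.227). Treatment 32 lay within the model range, so the groups overlapped. Sprr2d, a cornified envelope protein gene, measured 9.04, 8.41 and 7.87 against 5.97, 7.78 and 5.42 (-2.05, SE 0.62). It too was high in treatment 32, which lay just below model 23.

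Cp, the copper-binding ceruloplasmin, measured 8.61, 9.79 and 8.49 in model and 6.95, 7.83 and 7.16 in treatment arrays (-1.65, SE 0.39, adjusted p = 0.179). Serpina3n, a serine protease inhibitor, measured 8.12, 7.42 and 9.20 against 6.94, 6.50 and 6.32 (-1.66, SE 0.43). Enpp2, autotaxin, which makes lysophosphatidic acid, measured 8.06, 8.68 and 7.59 against 6.77, 6.46 and 6.74 (-1.46, SE 0.26). In these 3 genes no treatment array reached the lowest model array. Ifitm1 measured 11.06, 11.02 and 9.39 against 8.85, 9.01 and 8.91 (-1.56, SE 0.43), with model 23 again near treatment, and it passed without that array (adjusted p = 0.0032, limma). Leaving out model 23 had to widen the difference of Ifitm1, so that p-value is no separate support. Ptprr, Apoe, Gstm5, Rarres1 and Chodl differed by -1.63 to -1.37, and Alb by -1.87, with its model values spread from 5.21 to 8.79. Without model 22 Alb and Rarres1 differed by -1.04 and -0.84, and without treatment 32 Apoe and Chodl by -1.04 and -0.86.

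**Figure D4:**
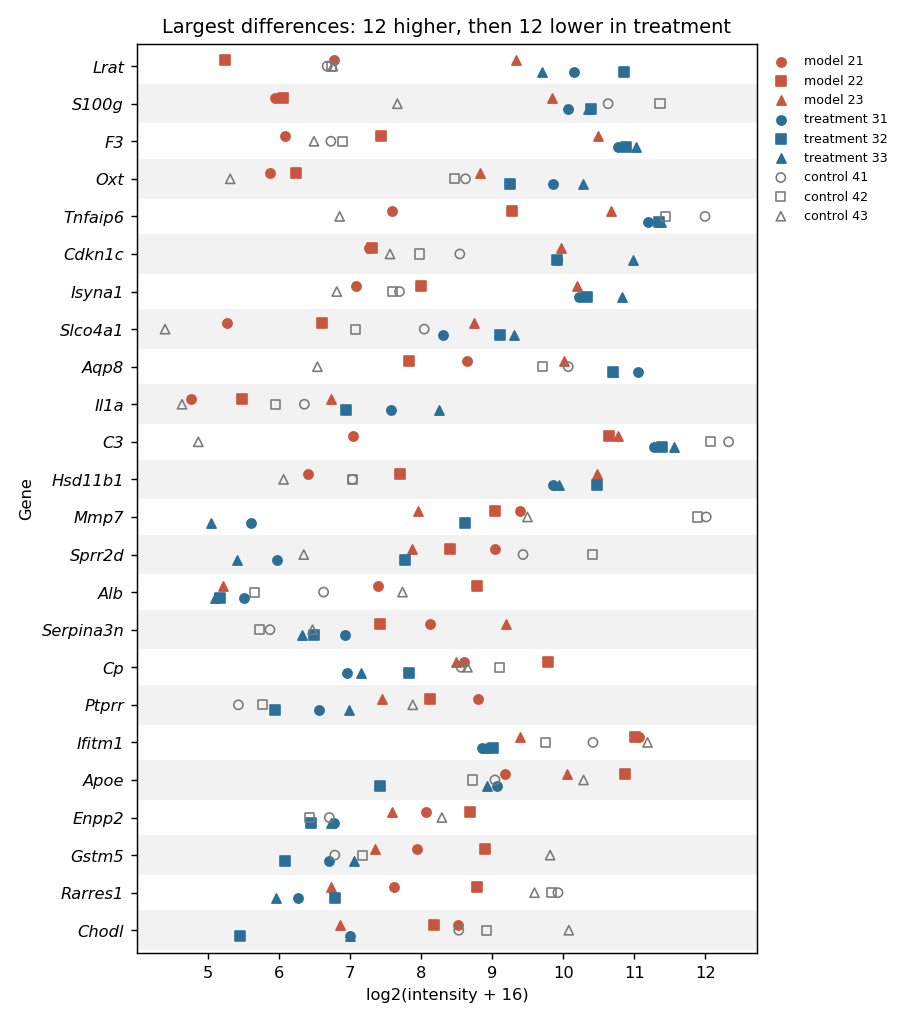
Each row is a gene and each point an array, on log2(intensity + 16), for the 12 largest higher and the 12 largest lower differences among genes above the median level. In the upper 12 rows model 23 (red triangle) lies nearer the treatment mean than the mean of models 21 and 22 (red circle and square), and in Mmp7 and Sprr2d treatment 32 (blue square) lies within or next to the model arrays.

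The VEGF and angiopoietin genes were mostly lower in treatment, and none passed. Of 17 genes listed, 14 were tested, and 13 measured lower and 1 higher, where 61.2% of all genes measured lower. Their median difference was -0.31, against -0.055 for all genes, and it was -0.21 after quantile normalization and -0.35 without model 23. The groups did not overlap for 7 as lower (20.1% of all genes) and 1 as higher (8.06%). At an unadjusted p under 0.05 there were 6 lower (14.4% of all genes) and 1 higher (5.96%). The higher gene was Fgf2 (0.21). It was listed beside the VEGF and angiopoietin genes, as were Hif1a and Epas1, and Hif1a measured higher after quantile normalization (0.03). Vegfd, Flt4 and Angpt1 did not pass the filter.

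Among the ligands, Vegfa, the main factor of vessel growth, measured 7.36, 7.25 and 7.11 in model and 7.00, 7.10 and 7.14 in treatment arrays. The groups overlapped by the margin between treatment 33 and model 23, and the log2 difference was -0.17 (95% interval -0.39 to 0.06, limma adjusted p = 0.337). Vegfb, which acts through the receptor Flt1, measured 7.37, 7.61 and 7.31 against 7.08, 7.02 and 7.18 (-0.34, SE 0.10, adjusted p = 0.185). Vegfc, a factor of lymphatic vessels, measured 5.78, 6.22 and 6.01 against 5.70, 5.25 and 5.69 (-0.46, SE 0.16, adjusted p = 0.206). Both showed all treatment arrays below all model arrays, Vegfc by a narrow gap. Pgf, placental growth factor, differed by -0.08 (95% interval -0.65 to 0.48), with its highest value, 6.08, in model 23. The sign for Pgf turned without model 23 (0.17).

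Of the receptors, Kdr, the main signalling receptor of Vegfa, measured 7.08, 7.47 and 7.14 in model and 7.21, 6.13 and 6.91 in treatment arrays (-0.48, 95% interval -1.14 to 0.18, adjusted p = 0.346). Flt1, a receptor that also acts as a decoy, differed by -0.05 (95% interval -0.28 to 0.18), and the sign turned without treatment 32. Nrp1, a neuropilin that binds VEGF beside Kdr, measured 7.11, 7.01 and 6.98 against 6.61, 5.66 and 6.11 (-0.91, SE 0.22, adjusted p = 0.179). Nrp2, its counterpart on lymphatic vessels, measured 7.20, 7.05 and 7.06 against 6.86, 6.84 and 6.77 (-0.28, SE 0.08, adjusted p = 0.18). Kdr and Nrp1 were both lowest in treatment 32, while Nrp2 was even across the treatment arrays. Without treatment 32 the difference was -0.17 for Kdr and -0.67 for Nrp1. Angpt2, an angiopoietin that loosens vessels, measured 6.00, 6.05 and 6.28 against 5.80, 4.97 and 5.55 (-0.67, adjusted p = 0.19; -0.44 without treatment 32).

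The array summary of the VEGF list, the median over its members of each value minus the gene's mean of the 6 arrays, was 0.118, 0.186 and 0.173 in model and 0.041, -0.432 and -0.05 in treatment arrays. Treatment 32 was the lowest by a wide margin. The endothelial markers, which share Tie1, Tek, Kdr and Flt1 with the VEGF list, were lowest in the same array. The lists are therefore not separate sets of genes. All 16 tested measured lower, with a median of -0.49 (-0.40 after quantile normalization), and their summary was -0.827 in treatment 32. Without treatment 32 the median was -0.21 for the endothelial list and -0.23 for the VEGF list, with 13 of 16 and 11 of 14 genes lower. Vwf, the von Willebrand factor made by endothelium, was lower in every treatment array, at 5.11, 5.10 and 5.04 against 5.81, 6.09 and 5.63 (-0.76, adjusted p = 0.179). Tie1, an endothelial receptor kinase counted in both lists, measured 5.80, 4.90 and 5.82 against 5.97, 6.20 and 6.36 (-0.67, and -0.36 without treatment 32). The part of the endothelial share of the tissue in the VEGF values was not tested.

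Of 23 receptivity and implantation genes tested, 18 measured lower (61.2% of all genes) and 5 higher, with a median of -0.17. Groups did not overlap for 8 as lower (20.1% of all genes). Hoxa10, needed in the stroma for implantation, measured 8.64, 8.35 and 8.08 in model and 8.02, 7.63 and 7.83 in treatment arrays (-0.53, limma adjusted p = 0.19). Hoxa11, its neighbour in the same role, measured 7.89, 7.87 and 7.78 against 7.34, 6.29 and 7.33 (-0.86, adjusted p = 0.194), and the difference was -0.51 without treatment 32. Lifr, the receptor of leukaemia inhibitory factor, which opens the window of implantation, was the other way, at 5.18, 5.12 and 5.36 against 5.71, 5.63 and 5.54 (0.40, adjusted p = 0.179). All 3 genes kept the groups apart, with model 23 next to the treatment arrays for each.

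Of 14 progesterone-induced genes tested, 11 measured lower (61.2% of all genes), with a median of -0.26. Groups did not overlap for 4 as lower (20.1% of all genes) and 0 as higher (8.06%). One of the lower members, the clock gene Per1, measured higher after quantile normalization (0.05). Gli1, a hedgehog target in the stroma, measured 7.99, 6.68 and 6.25 in model and 5.89, 6.07 and 5.90 in treatment arrays (-1.02), and the difference was -0.52 without model 21. Sgk1, a kinase of ion transport that also counts among the glucocorticoid and transport genes, was one of the 3 higher members, at 7.57, 7.82 and 8.87 against 8.73, 9.22 and 8.87 (0.85, adjusted p = 0.23). The groups of Sgk1 overlapped through model 23, and without that array the difference was 1.24. Hand2, a stromal factor of progesterone action that also counts as a decidual gene, differed by -0.32 (-0.21 without model 21). Of 11 decidual genes, 7 measured lower (median -0.18), a share near that of all genes. Il11ra1, the interleukin 11 receptor needed for decidualization, measured 7.81, 8.02 and 7.81 against 7.53, 7.34 and 7.43 (-0.45, adjusted p = 0.179). Foxo1, a transcription factor of decidual cells, differed by -0.40. Igfbp1, a growth factor binding protein of decidual cells, measured 9.03, 9.83 and 9.35 against 8.52, 9.21 and 9.83 (-0.22, 95% interval -1.06 to 0.62), and the groups overlapped.

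The 18 oestrogen-induced genes were divided, with 9 higher and 9 lower and a median of 0.04. S100g and Aqp8, described above, were among the higher. Igf1, the growth factor that carries oestrogen's signal from stroma to epithelium, was lower, at 9.54, 9.38 and 9.23 in model and 8.77, 7.87 and 8.19 in treatment arrays (-1.11, adjusted p = 0.179). The groups of Igf1 did not overlap, and model 23 was the nearest model array. Of the 9 genes of steroid receptors and metabolism tested, 4 were higher and 5 lower, and the sign of their median turned with the scaling (-0.08 as deposited, 0.02 after quantile normalization). Pgr, the progesterone receptor, measured 6.35, 6.04 and 6.22 against 6.33, 6.46 and 6.36 (0.18, adjusted p = 0.331), and Nr3c1, the glucocorticoid receptor, differed by -0.37 (adjusted p = 0.295; -0.16 without treatment 32).

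Cell type lists pointed in different directions. Of 21 epithelial markers, 16 measured higher and 5 lower, with a median of 0.26 (0.32 after quantile normalization, 0.44 without model 23). Cdh1, the epithelial cadherin, measured 8.41, 8.67 and 8.98 in model and 9.08, 9.63 and 9.69 in treatment arrays (0.78, adjusted p = 0.179). Krt18, a keratin of simple epithelium, measured 7.94, 8.60 and 9.21 against 9.02, 9.42 and 9.62 (0.77, adjusted p = 0.245), with model 23 inside the treatment range. Elf3, an epithelial transcription factor, differed by 0.62. Of the 5 lower members Cldn3, a tight junction claudin, had the smallest p, at 9.68, 8.84 and 8.51 against 7.85, 8.18 and 8.33 (-0.89, adjusted p = 0.2). Without model 21 the differences were 0.45 for Krt18 and -0.55 for Cldn3, and without treatment 32 that of Elf3 was 0.39.

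Of 23 stromal matrix genes, 19 measured lower (median -0.23), and the median was -0.07 without treatment 32. Pdgfra, the receptor kinase of stromal fibroblasts, measured 10.23, 10.60 and 10.40 in model and 9.66, 8.57 and 9.87 in treatment arrays (-1.05, adjusted p = 0.191), lowest in treatment 32 and -0.65 without it. Thy1, a surface marker of fibroblasts, measured 6.79, 6.39 and 6.27 against 5.88, 5.80 and 6.03 (-0.58, adjusted p = 0.179). The 18 smooth muscle markers stayed within 2-fold by their 95% intervals for all 18, with a median of -0.05. Lmod1, leiomodin of smooth muscle, was the member with the smallest p, at -0.38. All 9 adipocyte genes measured lower (median -0.27), where 61.2% of all genes did. Lpl, lipoprotein lipase, differed by -1.10 and Cfd, adipsin, by -0.74. Lipe differed by only -0.0017 and measured higher after quantile normalization (0.08), and Cidea measured higher without model 23 (0.03).

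In the immune genes single model arrays stood out. Of 17 macrophage and MHC class II genes, 16 measured lower (61.2% of all genes), with a median of -0.72. Of the 17, 0 were lower without overlap (20.1% of all genes). Cd74, the MHC class II invariant chain, measured 8.46, 10.41 and 9.92 in model and 9.03, 7.98 and 8.67 in treatment arrays (-1.04, adjusted p = 0.294). The list's summary was 1.293 in model 22 and -0.614 in model 21, so the model arrays spanned most of the range, and the median was -0.33 without model 22. Cd14, a receptor for bacterial lipopolysaccharide, was the higher member, at 6.25, 7.11 and 7.40 against 7.74, 8.52 and 7.53 (1.01, adjusted p = 0.208). Ccl5, a chemokine, was highest in model 22 too, at 6.31, 8.37 and 7.18 against 6.29, 5.56 and 6.17 (-1.28). Without model 22 the difference was -0.74 for Ccl5 and -0.63 for Cd74.

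Lymphocyte and natural killer genes measured lower in 6 of 7 (median -0.42, and -0.10 without model 22). Prf1, perforin of killer cells, measured 5.33, 6.39 and 6.02 in model and 5.32, 4.99 and 5.31 in treatment arrays (-0.70, adjusted p = 0.216; -0.47 without model 22). Of 21 interferon-response genes, 15 measured lower (median -0.15), and Gbp2, a guanylate-binding protein, measured 7.40, 7.55 and 7.07 against 6.72, 6.62 and 6.68 (-0.67, adjusted p = 0.179). Chemokines and cytokines measured lower in 11 of 17, near the share of all genes, among them Cxcl9 (-0.82) and Cxcl10 (-0.46), which attract T cells. Granulocyte (4 tested), red cell (3), nerve (9), ovary (5) and skeletal muscle (6) lists had medians between -0.12 and 0.07. Groups did not overlap for at most 1 member of each list in each direction, where 8.06% of all genes were apart as higher and 20.1% as lower. Of the 3 red cell genes, Alas2 was apart as higher and Bpgm as lower. The sign of the median of each of these 5 lists turned under at least 1 alternative.

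**Figure D5:**
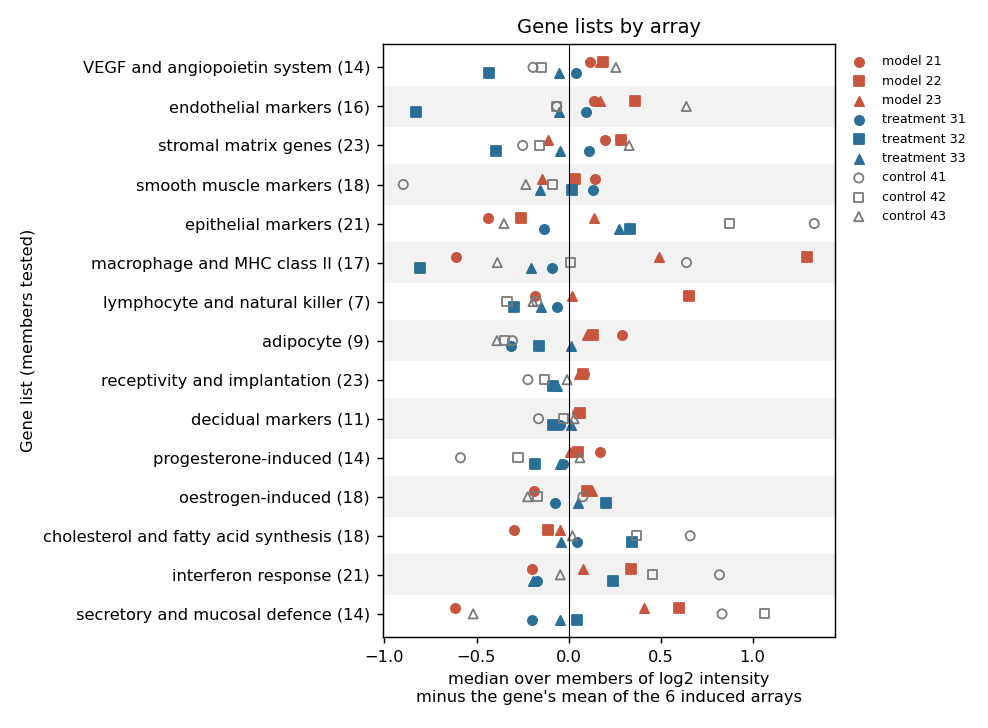
Each row is a gene list (members tested in brackets) and each point an array; the x axis is the median over members of log2 intensity minus the gene's mean of the 6 induced arrays. Treatment 32 (blue square) is lowest for the endothelial list at -0.827, and the model arrays spread from -0.614 to 1.293 for the macrophage list.

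Among metabolic lists, cholesterol and fatty acid synthesis measured higher in 15 of 18 genes, with a median of 0.28 (0.33 after quantile normalization, 0.15 without treatment 32). Msmo1, a sterol oxidase, measured 5.89, 6.10 and 6.14 in model and 6.48, 7.40 and 6.44 in treatment arrays (0.72, limma adjusted p = 0.207), highest in treatment 32 and 0.41 without it. Fdps, which makes farnesyl diphosphate, and Dhcr7, the last step to cholesterol, differed by 0.52 and 0.39, both without overlap, and by 0.30 and 0.23 without treatment 32. The 21 respiratory chain genes measured higher in 17 with a median of only 0.07, and all 21 had intervals within 2-fold. All 10 ribosomal protein genes measured lower, by a median of -0.09, also within 2-fold.

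Of 17 cell cycle genes, 12 measured lower (median -0.22), a share near the 61.2% of all genes that did, and 16 did so without model 23. Besides Mcm7, Rrm1, a ribonucleotide reductase subunit, measured 6.56, 6.38 and 6.26 in model and 6.05, 6.08 and 6.08 in treatment arrays (-0.33, adjusted p = 0.179), and Mcm4 differed by -0.37. Matrix protease genes measured lower in 11 of 17 (median -0.16), again near the share of all genes, with Mmp14 at 9.73, 9.79 and 9.86 against 9.51, 9.34 and 9.50 (-0.34, adjusted p = 0.179). Mmp11, Mmp2 and the inhibitor Timp3 differed by -0.98, -0.90 and -0.78, with the groups apart, and without treatment 32 Mmp2 and Timp3 differed by -0.56 and -0.47.

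Genes of the circadian clock measured lower in 14 of 17 (median -0.14). Of these 14, Per1, Per2 and Clock measured higher after quantile normalization, at 0.05, 0.08 and 0.09. The repressors Nr1d1 and Nr1d2 and the output factor Dbp differed by -0.58, -0.74 and -0.62, and Bhlhe40, another clock repressor, by 0.44, all 4 without overlap. Dbp measured 6.72, 6.87 and 6.99 in model and 6.11, 5.99 and 6.63 in treatment arrays (adjusted p = 0.18). The hour at which tissue was taken is not given in the sources used here, so time of day and treatment cannot be told apart for these genes. Glucocorticoid-responsive genes measured lower in 11 of 15 (median -0.21, and -0.04 without treatment 32). Of these 11, Per1 and Dusp1 measured higher after quantile normalization (0.05 and 0.10). The 2 members with the smallest p went apart. Klf9, a transcription factor, differed by -0.87 (-0.43 for the mean of its probe sets) and Mt2A, a metallothionein, by 0.79.

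Stress and activity genes were near balance. The median was 0.03 for hypoxia and glycolysis, 0.05 for the unfolded protein response, -0.06 for heat shock and 0.08 for immediate early genes. The sign of the hypoxia median turned without treatment 32 (-0.03) and without model 22, and that of the heat shock median after quantile normalization (0.03). Ddit3, a factor of endoplasmic reticulum stress, measured 6.15, 6.49 and 6.50 in model and 5.73, 5.55 and 5.81 in treatment arrays (-0.68, adjusted p = 0.179). Nr4a1, an early-response receptor, measured 5.54, 5.73 and 5.82 against 6.38, 6.09 and 6.48 (0.62, adjusted p = 0.179), and Klf2, which responds to blood flow in endothelium, differed by -0.75 (-0.47 without treatment 32, -0.14 for the mean of its probe sets).

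Opioid, neuropeptide and monoamine genes, listed because acupuncture is known for effects on these systems, were divided at 9 higher and 7 lower. Oprk1, the kappa opioid receptor, was dim, at 4.94, 4.88 and 4.83 in model and 5.19, 5.13 and 5.11 in treatment arrays (0.26, adjusted p = 0.179). The enzymes Maoa and Maob, which break down monoamines, were lower: Maob measured 7.74, 8.09 and 7.38 against 7.00, 6.15 and 6.70 (-1.12, adjusted p = 0.179) and Maoa differed by -0.51. Gal, the neuropeptide galanin, measured 5.22, 5.23 and 5.71 against 6.77, 5.50 and 7.92 (1.34, adjusted p = 0.245), with treatment 32 below model 23, and the difference was 0.75 without treatment 33.

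Prostaglandin genes were even at 7 and 7. Ptger3, a prostaglandin E receptor, measured 8.85, 8.58 and 8.62 in model and 8.05, 7.43 and 7.68 in treatment arrays (-0.96, adjusted p = 0.179), and Slco2a1, which takes prostaglandins into cells, measured 6.41, 6.24 and 6.74 against 7.08, 6.85 and 7.33 (0.62, adjusted p = 0.179). Akr1b1, an aldose reductase that also makes prostaglandin F, measured 9.97, 9.39 and 9.37 against 8.99, 9.03 and 8.95 (-0.59, adjusted p = 0.18). The difference of Akr1b1 was -0.39 without model 21 and -0.23 for the mean of its probe sets, and that of Ptger3 was -0.55 for the mean of its probe sets. Water and ion transport genes (6 higher, 7 lower) and secretory genes (7 and 7) were also divided. In the former Slc12a2, a salt cotransporter, differed by -0.31, and in the latter Wfdc2, a secreted protein of the whey acidic protein family, by -0.58 (-0.31 without model 22) and Defb1, a defensin, by 0.78.

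The genes with the largest spread within groups, among genes above the median level, had overlapping groups. They were chosen for that spread, which makes overlap likely, so the overlap is no separate result. Car3, a carbonic anhydrase of muscle and fat, measured 9.27, 8.71 and 4.76 in model and 6.22, 6.49 and 7.95 in treatment arrays (-0.69, SE 1.18). Lcn2, an iron-binding lipocalin of the epithelium, measured 6.38, 10.81 and 10.32 against 9.51, 11.08 and 10.36 (1.15, SE 1.14). Fam111a, a protease gene of DNA replication, was at 8.08 to 8.86 in 5 arrays and 4.53 in treatment 32. In the 3 controls it was at 4.61 to 5.05. The 95% intervals ran from -3.15 to 1.97 for Cuzd1, from -2.90 to 2.08 for A2ml1 and from -3.08 to 1.81 for Orm1, so large differences in either direction lie inside them.

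Genes that had differed most from untreated arrays in either group were compared between model and treatment. Nmb, the peptide neuromedin B, measured 5.92, 6.24 and 6.86 in model and 6.95, 7.41 and 7.28 in treatment arrays, against 4.78, 4.91 and 5.53 in controls (0.87, SE 0.25, limma adjusted p = 0.18). Cyp26a1, which breaks down retinoic acid, measured 7.32, 6.78 and 8.22 against 7.89, 7.49 and 8.68 (0.58, 95% interval -0.45 to 1.60). Sftpd, surfactant protein D, differed by -0.42 and Rnpep, an aminopeptidase, by -0.39. In Nmb and Rnpep the treatment arrays lay farther from the untreated arrays than the model arrays did, with the groups apart, while in Cyp26a1 and Sftpd they overlapped.

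The untreated arrays did not form 1 reference. Controls 41 and 42 were nearer the treatment mean than the model mean for 57.4% and 52.7% of genes, and control 43 for 30.5%. Among the 2175 genes lower in treatment without overlap, the shares were 66.6%, 56.5% and 16.6%, and among the 873 higher they were 58.3%, 43.8% and 20.3%. S100g measured 10.63, 11.36 and 7.67 in the controls, and Oxt 8.62, 8.46 and 5.31, so that control 43 was low in both genes that were low in models 21 and 22. Lrat and F3 were below the treatment arrays in all 3 controls, at 6.68 to 6.76 and 6.49 to 6.89. For Lrat this was near model 21 (6.77) and above model 22 (5.25), and for F3 it lay between models 21 and 22. No stage of the oestrous cycle is given in the sources used here, and its part in these values was not tested.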

How the data were processed

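RNA of 9 samples of rat uterine tissue was measured on Affymetrix arrays, and 6 arrays (3 model, 3 treatment, grouped by the condition in the labels) entered the comparison. The deposited values were normalized probe set intensities on a linear scale, 1 per probe set and array, and the authors made them with MAS5 per the submitters' processing notes. For its settings and scaling and for detection calls the entry is "not given in the sources used here", so the background level is unknown. Of 31099 probe sets 57 were Affymetrix controls, and of the other 31042 the platform annotation gave 1 symbol for 20826, several for 436 and none for 9780; 20758 were matched to RefSeq by gene ID.

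The scale was log2(intensity + 16), on which differences of dim genes come out too small. Probe sets had to reach the 40th percentile of the array in 3 or more of the 6 arrays, and each gene was represented by its probe set of highest mean. Treatment minus model was fitted in R 4.3.3 by limma 3.58.1 (lmFit and trended eBayes on 4 residual degrees of freedom, two-sided), and p-values were adjusted by Benjamini-Hochberg over 10825 genes; "passed" means an adjusted p under 0.05. Group values are means or single arrays, and errors are the standard error of the difference. The number of arrays limits the precision. The fit was tested on simulated data.

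Since no gene passed, the genes named were the 12 with the smallest p each way among those with non-overlapping groups, a level above the median of all genes in at least 1 group and a gene symbol that is no locus name. Also named were VEGF ligands and receptors, up to 4 members with the smallest p in each of 35 gene lists, the genes with the largest residual spread, and genes called against the untreated arrays earlier. The 12 largest differences each way, the genes that passed without model 23 and the promoter motif were chosen after their values were seen. Members, lists and rules were chosen with earlier results of these data known. Lists are described by counts and medians. Promoter sequences were taken from RefSeq tables (GRCr8).

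As alternatives, 1 or 64 was added in place of 16, and the rest were quantile normalization, median centring, no filter, a filter at the 60th percentile or over all 9 arrays, no or a robust variance trend, array weights, all 9 arrays in the fit, other handling of probe sets, other thresholds, a block for arrays that share a last digit, and each array left out. Figures were drawn with matplotlib 3.10.9.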

Additional observations from a re-analysis of the deposited data

How the results depend on the processing

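No gene passed under any of the other scalings, filters, variance models or thresholds tried, and 0 to 23 passed with each array left out, 23 of them without model 23. At an unadjusted p under 0.05, the count of higher genes was 645; it was 1043 after quantile normalization, 1145 with no filter, 363 with a filter at the 60th percentile, 1381 for every probe set on its own, and 335 (without treatment 32) to 823 (without model 23) with each array left out. The count of lower genes, 1564, was 875 after quantile normalization and 2704 for every probe set, and 988 (without treatment 32) to 1540 (without model 21) with each array left out. Without model 22 the counts were 337 and 1040. Quantile normalization kept 1465 of the 2209 genes in the same direction. Intervals within 2-fold were counted for 17728 when every probe set stood alone, since more were tested. Of 3212 values of 170 named genes under the alternatives, 13 turned sign, in 9 genes. Pgf was 0.046 for the mean of its probe sets and -0.22 to 0.17 with each array left out. The ranges with each array left out were -0.114 to 0.041 for Flt1, -2.11 to 0.15 for Car3, -0.25 to 1.97 for Lcn2, -1.62 to 0.17 for Cuzd1, -1.75 to 0.42 for Fam111a, -1.65 to 0.42 for A2ml1, -1.34 to 0.44 for Orm1 and -0.54 to 0.11 for Igfbp1. List medians moved by more than the spread between arrays in 48 of 558 values, and the lymphocyte and granulocyte lists had no value at the 60th percentile. The cause of these shifts was not tested beyond the fewer or more genes that a filter leaves.

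Arrays 21 and 31, 22 and 32, and 23 and 33 share a last digit; their deviations from the group means correlated at 0.137, -0.193 and 0.101 across genes, so they were not treated as pairs. With the digit as a replicate block, 0 genes passed, with 677 higher and 1255 lower at an unadjusted p under 0.05. With 3 arrays per group the median half-width of the unadjusted 95% interval was 0.239 on the log2 scale. Smaller differences of single genes could mostly not be told from 0 even without adjustment. After adjustment much larger differences did not pass, such as -1.27 for Cped1 (limma adjusted p = 0.179).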
